A study of Mus musculus with 6 samples.

Results

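Cytosolic ribosomal protein genes encode the proteins of the ribosome that translates nuclear mRNA. They were taken as the protein-coding genes of GENCODE M21 named Rpl or Rps with a number, plus Rplp0, Rplp1, Rplp2 and Rpsa, which gave 83 genes of the 55536 listed in each library. Of these, 46 belong to the core large (60S) subunit, 31 to the core small (40S) subunit, and 6 are paralogs of core genes (Rpl3l, Rpl7l1, Rpl10l, Rpl22l1, Rpl39l and Rps27l). After the filter on low counts 80 of them were tested, among 15589 genes in all. The other members were Rpl10l with 0 counts over the 6 libraries, Rpl39l with 1 count, and Rpl3l with 17 counts, from 1 to 6 per library.

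The libraries were made from liver of mice lacking CREBH, labelled CREBH-K.O and called CREBH-KO here, and of WT control mice. Both groups were fasted for 14 h and gave 3 libraries each. CREBH, encoded by Creb3l3, is a transcription factor of the endoplasmic reticulum membrane in hepatocytes that responds to fasting, and the design asks how liver expression under fasting differs without it. The labels give no strain, sex or age, no account of which exons the knockout lacks, and no statement that the deletion is limited to 1 cell type. For CREBH-KO 2 and CREBH-KO 3 they mention the loss of the fastq of read 1. The library numbers only name the libraries.

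Each ribosome holds 1 copy of nearly every ribosomal protein, so a cell makes these proteins in matched amounts. Their genes are scattered over the genome and are among the most strongly expressed of any cell. In mammals their mRNAs start with a C followed by a run of pyrimidines, the 5′ terminal oligopyrimidine (TOP) motif. Through this motif mTORC1 and the RNA-binding protein LARP1 control how much of the mRNA is translated and how long it is kept. Fasting is known to lower mTORC1 activity in liver, and translation of these mRNAs with it. Counts of mRNA, as here, do not show how much of it was translated.

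The 83 genes lay on 19 chromosomes, with 14 on chromosome 7, 8 on chromosome 17 and 7 on chromosome 11. A promoter window from RefSeq (GRCm38.p6, 250 bases before to 50 after the annotated start) was matched by symbol for 63 of them. The RefSeq start lay up to 769 bases (Rps10) from the start of the member's GENCODE mRNA, and letters were searched around the RefSeq start only. A pyrimidine run of at least 8 C or T on the transcript strand, within 50 bases either side of the start, was found in 50 of the 63 windows (79.4%) and in 35.7% of all 32851 windows. The letters CCGGAAG, a core of binding sites of ETS factors, were found on either strand in 25 windows (39.7%) against 8.86% of all. The letters AAGATGG, a core of YY1 sites, stood in 9 (14.3%) against 6.34%, and TGACGT, found in cAMP response elements, in 12 (19.0%) against 7.51%. The letters TATAAA stood in 6 (9.52%) against 13.6%. The ETS and YY1 letters can overlap in AAG. Such matches describe the letters and are not evidence of binding.

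Windows of 130 bases, from 100 before to 30 after the RefSeq start, are printed for 6 members that the results below turn on. They are Rps28 and Rpl7l1, which rose, Rps3a1, which came next to them by adjusted p, Rplp0, which had the lowest fold change, and Rps6 and Rpsa, which have roles outside the ribosome's fabric. Capitals mark the letters searched for, and every line reads 5′ to 3′ on the transcript strand.
Rps28: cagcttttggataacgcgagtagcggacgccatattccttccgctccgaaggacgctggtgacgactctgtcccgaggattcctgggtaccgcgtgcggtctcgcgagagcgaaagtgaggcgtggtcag
Rpl7l1: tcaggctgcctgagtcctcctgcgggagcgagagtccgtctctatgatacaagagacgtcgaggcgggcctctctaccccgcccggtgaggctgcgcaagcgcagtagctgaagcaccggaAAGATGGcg
Rps3a1: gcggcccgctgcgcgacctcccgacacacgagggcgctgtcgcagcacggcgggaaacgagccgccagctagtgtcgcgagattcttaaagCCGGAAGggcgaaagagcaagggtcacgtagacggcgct
Rplp0: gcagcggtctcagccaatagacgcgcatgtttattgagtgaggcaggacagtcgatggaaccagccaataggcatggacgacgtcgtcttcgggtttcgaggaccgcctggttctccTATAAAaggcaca
Rps6: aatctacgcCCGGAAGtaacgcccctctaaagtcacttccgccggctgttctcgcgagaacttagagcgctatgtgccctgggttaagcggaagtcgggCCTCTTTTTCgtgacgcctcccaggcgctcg
Rpsa: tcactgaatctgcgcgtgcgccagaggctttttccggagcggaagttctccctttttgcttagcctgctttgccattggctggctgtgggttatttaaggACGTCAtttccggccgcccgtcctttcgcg
Their positions are chr17:33824533-33824662 (minus strand) for Rps28, chr17:46782627-46782756 (minus strand) for Rpl7l1 and chr3:86142639-86142768 (minus strand) for Rps3a1. Those of the others are chr5:115559367-115559496 (plus strand) for Rplp0, chr4:86857338-86857467 (minus strand) for Rps6 and chr9:120127666-120127795 (plus strand) for Rpsa. Rps6 holds the pyrimidine run across its start and the ETS letters upstream. Rps3a1 holds the ETS letters just before its start, Rpl7l1 the YY1 letters after its start, Rplp0 the TATA letters after its start, and Rpsa the cAMP response element letters on the opposite strand, at its start. In the stretch printed for Rps28 the letters are not marked at all. Runs of C or T that do not lie wholly within 50 bases of the start were not searched for and stand unmarked in Rps28 and Rpsa. The GENCODE mRNA starts 86 bases from the RefSeq start in Rps28 and 78 in Rpsa, beyond those 50 bases. A run at that other start was therefore not searched for.

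Reads counted in genes ranged from 28106243 (CREBH-KO 2) to 39288819 (WT 1) per library. Creb3l3 stood at 467, 496 and 495 CPM (counts of a gene scaled to the same library size in every library) in WT 1, 2 and 3 and at 57.4, 45 and 46.4 CPM in CREBH-KO 1, 2 and 3, and fell by 3.29 on the log2 scale (± 0.11 SE; edgeR adjusted p = 3.00e-06, by the quasi-likelihood test with Benjamini-Hochberg adjustment over all genes). The groups were therefore apart at the targeted gene in every library. Counts of the mitochondrial genome took 5.09% to 6.58% of a WT library and 4.34% to 5.66% of a CREBH-KO library, and the ribosomal RNA locus took 1.04% to 1.15% and 0.567% to 1.44%. The 6 markers of hepatocytes summed to 62629 to 78928 CPM in WT and 67217 to 73914 CPM in CREBH-KO, and 1 of them, Apoa1, fell by 1.06 on the log2 scale (edgeR adjusted p = 0.00249). In bulk tissue, fewer cells of a type and less RNA per cell cannot be told apart.

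Most ribosomal protein genes were slightly higher in CREBH-KO than in WT liver, and few of them passed the test. The median log2 fold change (CREBH-KO minus WT) of the 80 members was 0.14, or 1.10-fold, and the middle of the family lay between 0.082 (lower quartile) and 0.19 (upper quartile). The same median over all 15589 genes was 0.025. Above 0 were 75 of the 80 (93.75%), against 53.1% of all genes tested. Rps28, Rps27a and Rpl7l1 rose at an adjusted p under 0.05, and 0 members fell. These 3 genes are 3.75% of the members tested, which is near the 3.91% of all genes that were called higher. In either direction 10.4% of all genes were called.

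At an unadjusted p under 0.05, 20 members were higher (25%), against 11.7% of all genes, and 0 were lower. The 3 CREBH-KO libraries all stood above the 3 WT libraries in 36 members (45%), against 15% of all genes. The reverse order was found in 0 members, against 15.7% of all genes. The members' differences were small and also measured with small errors: their median SE was 0.080 on the log2 scale, against 0.17 over all genes. Only 4 of the 80 differed by 0.3 or more on the log2 scale. These genes are expressed together and are not independent of each other, so the counts describe the family and carry no p of their own.

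**Figure D1:**
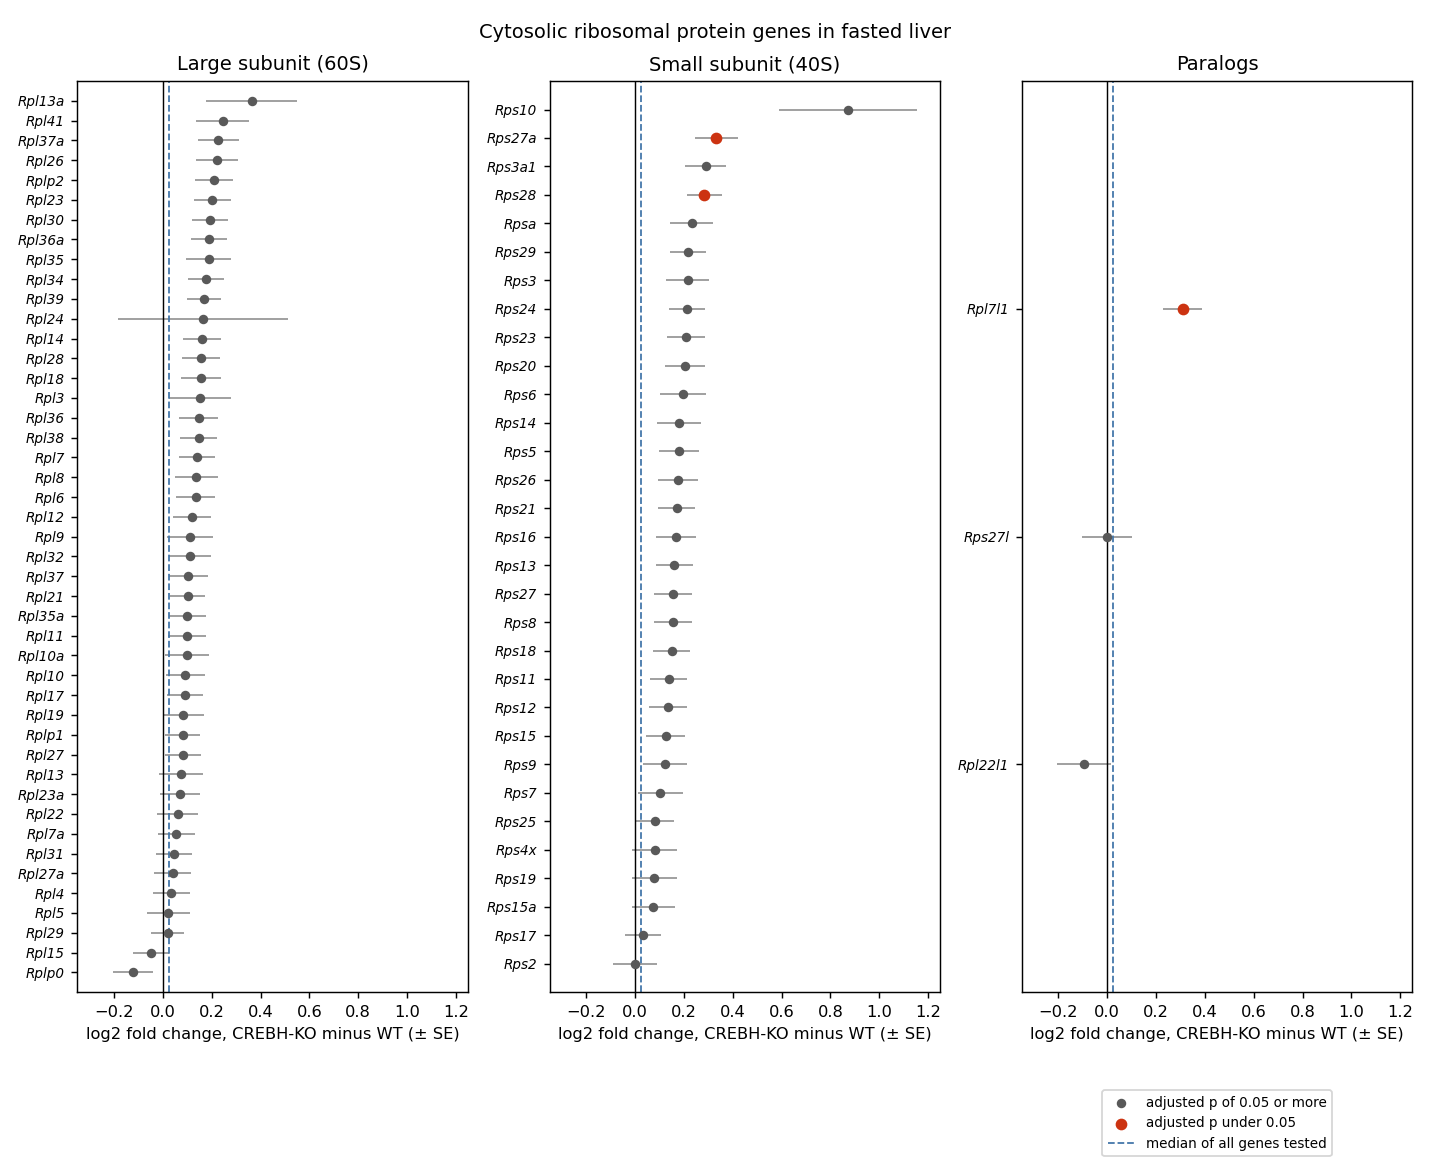
Log2 fold change (CREBH-KO minus WT, x axis) of 79 of the 80 tested ribosomal protein genes, with bars of 1 SE, grouped into 60S proteins, 40S proteins and paralogs. Red points are the 3 genes with an edgeR adjusted p under 0.05, and the dashed line is the median of all genes tested (0.025); 74 of the 79 points lie above 0.

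The shift was seen at the level of whole libraries. The 83 genes took 1.38%, 1.39% and 1.49% of the counts in WT 1, 2 and 3 and 1.56%, 1.75% and 1.6% in CREBH-KO 1, 2 and 3, without overlap. Set against the WT mean of each gene, the members' median log2 level with TMM scaling was -0.039, -0.028 and 0.069 in WT 1, 2 and 3. It was 0.11, 0.19 and 0.11 in CREBH-KO 1, 2 and 3. The CREBH-KO libraries were thus all above the WT libraries, with WT 3 nearest to them. The members moved together from library to library within a group too. WT 3 was the highest of the WT libraries in 62 of the 80 members, and CREBH-KO 2 the highest of the CREBH-KO libraries in 62 of the 80. CREBH-KO 2 also had the fewest counts, the lowest ribosomal RNA share and the lowest mitochondrial share, and its label names a lost file; the part of these in its level was not tested. CREBH-KO 1 is the only CREBH-KO library with no such note. With it alone set against WT, the members' median log2 fold change was 0.082. In that run 1 library stands for its group, so the spread within CREBH-KO was not measured.

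**Figure D2:**
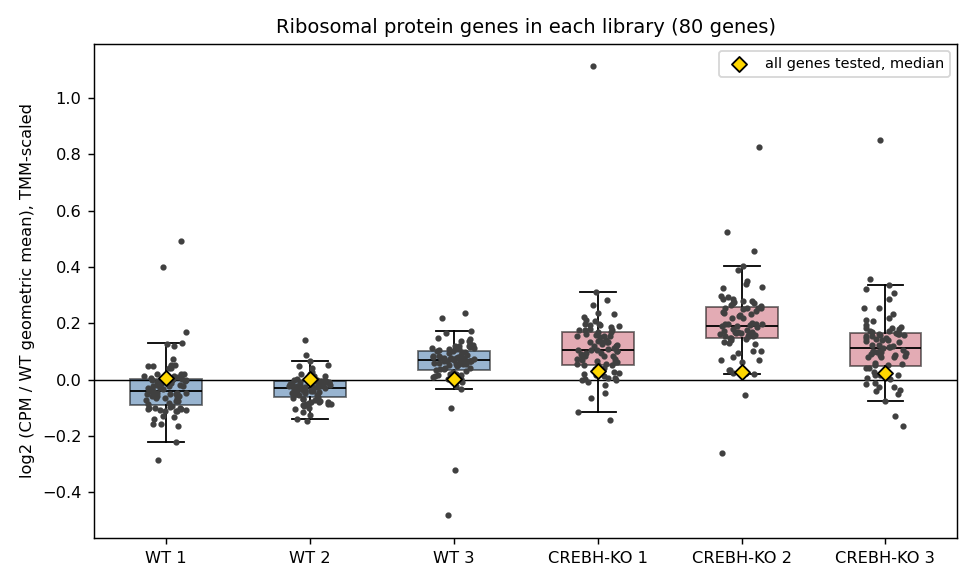
Level of the 80 tested ribosomal protein genes in each library (y axis, log2 of CPM over the geometric mean of the WT libraries, TMM-scaled); each point is a gene, boxes span the quartiles, whiskers reach the farthest point within 1.5 box lengths, and diamonds are the median of all genes tested. The members' medians run from -0.039 to 0.069 in WT and from 0.11 to 0.19 in CREBH-KO.

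How far from 0 the family lay depended on how the libraries were scaled. Another scaling shifts all genes by nearly the same amount, so it moves the members' median and that of all genes together by construction. With counts divided by library size alone the members' median log2 fold change was 0.21 and that of all genes 0.098. With upper-quartile factors the medians were 0.17 and 0.060, and with RLE factors, the kind DESeq2 uses, 0.13 and 0.017. TMM factors computed without the members gave 0.14 and 0.027, close to the values with them. Library sizes summed without the mitochondrial genome and ribosomal RNA genes gave 0.20 and 0.087. The gap between the medians of members and all genes, which scaling can hardly alter, was 0.11 to 0.12 throughout.

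The calls moved little with scaling. Rps28, Rps27a and Rpl7l1 were called under all 6, and Rps3a1 was added with library size alone, with upper-quartile factors and with the reduced library sizes. Over all genes, the share of calls that were higher was 37.7% with TMM scaling and 52.8% with library size alone, so the background of the members' direction depends on this choice. The number of members above 0 was 75 with TMM and RLE factors, 77 with upper-quartile factors and with TMM factors without the members, and 78 with both library-size scalings.

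**Figure D3:**
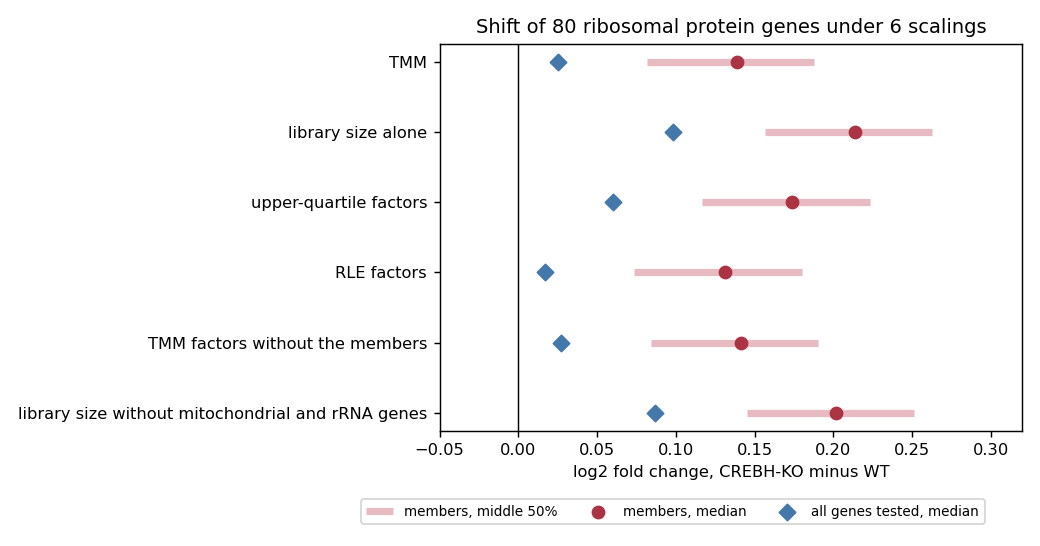
Median log2 fold change (x axis, CREBH-KO minus WT) of the 80 tested ribosomal protein genes (circles, with bars over the middle 50% of the genes) and of all genes tested (diamonds) under each of 6 scalings of the libraries (rows). Scaling moves both medians together by construction, with the members' median between 0.13 and 0.21.

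In the small subunit, 2 of the 31 core genes rose, 0 fell and 29 missed the threshold. Their median log2 fold change was 0.17, and the groups did not overlap, with CREBH-KO higher, in 20 of 31 (64.5%), against 15% of all genes. The 2 calls stand against 3.91% of all genes called higher. Rps28 (ENSMUSG00000067288, chromosome 17, 33819027 to 33824562, minus strand, GRCm38) encodes eS28, a small protein at the mRNA exit of the 40S subunit. It stood at 99.8, 94.3 and 94.7 CPM in WT 1, 2 and 3 and at 116, 117 and 119 CPM in CREBH-KO 1, 2 and 3. All CREBH-KO libraries were above all WT libraries, and the libraries of a group lay close together. Rps28 rose by 0.28 ± 0.070 on the log2 scale (SE, n = 3 per group), or 1.22-fold, with an adjusted p of 0.0348 in edgeR's quasi-likelihood test.

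Rps27a (ENSMUSG00000020460, chromosome 11, 29545846 to 29548109, minus strand) encodes ubiquitin fused to eS31 and so supplies both a ribosomal protein and free ubiquitin. It stood at 163, 167 and 179 CPM in the WT libraries and at 196, 233 and 211 CPM in the CREBH-KO libraries. The groups did not overlap, and CREBH-KO 2 was the highest. The rise was 0.33 ± 0.087 on the log2 scale, or 1.26-fold (edgeR adjusted p = 0.0423). With a correction for GC content the adjusted p of Rps27a was 0.0650.

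Rps3a1, which encodes eS1, was next by adjusted p after the 3 called members. Its levels were 275, 290.0 and 306 CPM in WT and 335, 383 and 346 CPM in CREBH-KO, again without overlap. Its log2 fold change of 0.29 ± 0.085 missed the threshold with TMM scaling (edgeR adjusted p = 0.0636) and passed it with library size alone (adjusted p = 0.0365).

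The largest log2 fold change of the family, 0.87 ± 0.28, was that of Rps10, which encodes eS10 at the head of the 40S subunit, and it did not pass the test (edgeR adjusted p = 0.0860). Its levels were 2.17, 1.53 and 1.11 CPM in WT and 3.34, 2.74 and 2.78 CPM in CREBH-KO, resting on 34 to 114 counts per library. The groups did not overlap, but the WT libraries were spread widely. In the annotation, 91.6% of the Rps10 mRNA lies within the readthrough gene RPS10-NUDT3, which itself had 0 counts. The 4 pseudogenes named for Rps10 held 1172 counts over the 6 libraries, against 453 for Rps10 itself. Of the stretches of 50 bases in its mRNA, 92.4% recur in transcripts of other genes. Whether the count of Rps10 covers only part of its reads was not tested. Without WT 1 the log2 fold change was 1.15 (adjusted p = 0.0329), and in DESeq2 the adjusted p was 0.0461.

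Rps6 encodes eS6, the ribosomal protein phosphorylated by S6 kinase downstream of mTORC1. It stood at 200, 214 and 234 CPM in WT and at 232, 273 and 239 CPM in CREBH-KO. WT 3 lay above CREBH-KO 1, so the groups overlapped, and the log2 fold change of 0.20 ± 0.094 did not pass (edgeR adjusted p = 0.232). Rpsa encodes uS2, also known as a laminin receptor. Its levels of 341, 365 and 396 CPM in WT and 446, 442 and 405 CPM in CREBH-KO did not overlap, and the log2 fold change was 0.23 ± 0.087 (edgeR adjusted p = 0.131). At the low end of the subunit was Rps2, which encodes uS5, with 587, 685 and 700 CPM in WT against 658, 665 and 647 CPM in CREBH-KO. Its log2 fold change was -0.0010 ± 0.090, and all CREBH-KO libraries lay inside the WT range; with library size alone the value was 0.074.

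**Figure D4:**
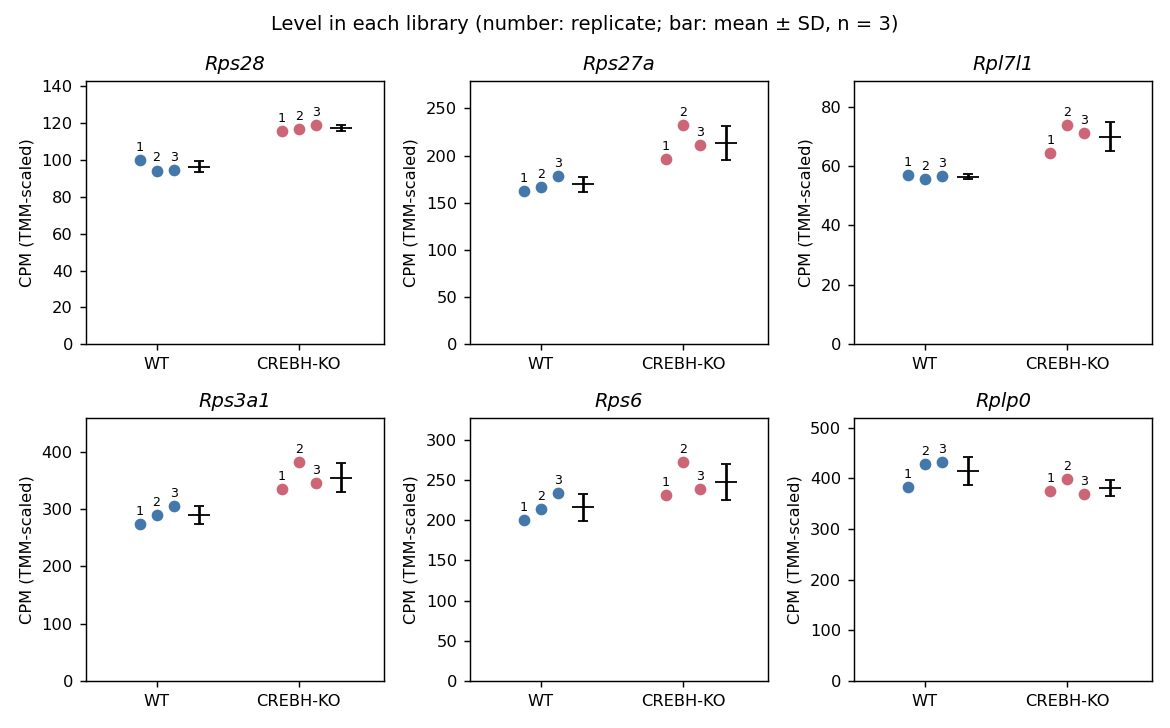
TMM-scaled CPM (y axis, from 0) of 6 ribosomal protein genes in each WT and CREBH-KO library, with the library number above each point and a bar for the mean ± SD of the 3 libraries. Rps28, Rps27a, Rpl7l1 and Rps3a1 show no overlap between the groups, Rps6 overlaps, and Rplp0 is lower in the CREBH-KO mean with overlap.

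In the large subunit, 0 of the 46 core genes passed the test in either direction. Their median log2 fold change was 0.11, and CREBH-KO stood above WT without overlap in 15 of 46 (32.6%), against 15% of all genes, and below WT without overlap in 0, against 15.7%. Whether the subunits differ from each other was not tested. Rpl13a had the largest log2 fold change, 0.36 ± 0.19. Its protein, uL13, is also known as part of a complex that represses translation of inflammatory mRNAs. Its levels were 10.5, 7.54 and 6.37 CPM in WT and 9.86, 11.5 and 10.2 CPM in CREBH-KO. WT 1 lay within the CREBH-KO range (edgeR adjusted p = 0.263); without it the log2 fold change was 0.58 and the adjusted p 0.0449. Of the Rpl13a mRNA, 82.8% lies within the overlapping gene Gm45713, which had 0 counts.

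The stalk of the large subunit, built from uL10 (Rplp0) and the acidic proteins P1 (Rplp1) and P2 (Rplp2), recruits the elongation factors. Its 3 genes had differing values. Rplp0 (ENSMUSG00000067274, chromosome 5, 115559467 to 115563727, plus strand), often used as a reference gene in quantitative PCR, had the lowest fold change of the family. It stood at 383, 428 and 433 CPM in WT and at 375, 398 and 370 CPM in CREBH-KO, with CREBH-KO 2 above WT 1. The log2 fold change of -0.12 ± 0.083 did not pass the test (edgeR adjusted p = 0.402), and it stayed below 0 under every alternative run (-0.19 to -0.046). Rplp1 was at 349, 349 and 348 CPM in WT and at 380, 357 and 370 CPM in CREBH-KO, higher without overlap at a log2 fold change of 0.082 ± 0.072. Rplp2 was at 126, 123 and 139 CPM in WT and at 148, 154 and 148 CPM in CREBH-KO, also without overlap (0.21 ± 0.078, edgeR adjusted p = 0.125). That Rplp0 differs from the other two was not tested.

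Rpl5 and Rpl11, whose proteins bind 5S ribosomal RNA and, when free, the p53 ligase MDM2, had log2 fold changes of 0.023 and 0.10 with overlapping groups, and the sign of Rpl5 turned under 5 of the alternatives. Rpl15, which encodes eL15, was the other core 60S gene below 0, at 113, 118 and 117 CPM in WT and 112, 118 and 106 CPM in CREBH-KO (-0.050 ± 0.074). Its groups overlapped, and with library size alone its sign turned.

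Among the paralogs, 1 of the 3 tested rose, against 3.91% of all genes called higher. Rpl7l1 (ENSMUSG00000063888, chromosome 17, 46773907 to 46782672, minus strand), a relative of Rpl7, encodes a factor of nucleolar pre-60S particles. It stood at 56.9, 55.5 and 56.7 CPM in WT and at 64.5, 73.8 and 71.2 CPM in CREBH-KO. All CREBH-KO libraries were above the narrow WT range. It rose by 0.31 ± 0.079 on the log2 scale, or 1.24-fold (edgeR adjusted p = 0.0385). Rpl22l1, which can take the place of Rpl22, stood at 14.7, 15.4 and 16.3 CPM in WT and at 15.8, 12.9 and 14.7 CPM in CREBH-KO, with overlap (-0.095 ± 0.11). Rps27l, a relative of Rps27 known as a p53 target, stood at 137, 116 and 114 CPM in WT and at 113, 136 and 118 CPM in CREBH-KO. Its log2 fold change was -0.00032 ± 0.10, and both groups spanned the same range.

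The 3 calls were close to the threshold. Rps28 kept an adjusted p under 0.05 (0.0393) without WT 1 and lost it when any other library was left out (0.0728 to 0.145). Rps27a and Rpl7l1 kept theirs without CREBH-KO 1 (0.0361 and 0.0338) and lost it when any other library was left out. Those values were 0.0625 to 0.156 for Rps27a and 0.0648 to 0.145 for Rpl7l1. Leaving out WT 2, WT 3, CREBH-KO 2 or CREBH-KO 3 left 0 members called, while the members' median stayed between 0.11 and 0.18 for each library left out.

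The core genes differed far more from each other in level than between the genotypes. Levels are CPM per kilobase of the shortest protein-coding mRNA that the annotation does not mark as incomplete. WT means of the core genes ran from 0.821 (Rpl24) to 699 (Rplp1), with a median of 260 in WT and 287 in CREBH-KO. Rplp1 led at 699 ± 0.643 in WT and 739 ± 22.7 in CREBH-KO (SD, n = 3). Other high levels in WT were those of Rps2 at 683 ± 63.8, Rps9 at 609 ± 61.1 and Rps3 at 511 ± 39.4. The lengths used were 499 bases for Rplp1, 962 for Rps2, 478 for Rps9 and 489 for Rps3, against a median of 633. All counts of a gene were divided by the length of that 1 mRNA, so a short one raises the level. Whether these mRNAs are the ones expressed was not tested, so the order of the genes depends on the lengths chosen. Rplp1 and Rps2 differed by less than the SD of Rps2, while Rps2 and Rps9, and Rps9 and Rps3, lay further apart than either SD.

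Of the 5 lowest levels, 4 belonged to genes whose mRNA lies largely within other genes. Rpl24 stood at 0.821 ± 0.121 CPM per kilobase in WT and 0.919 ± 0.0673 in CREBH-KO, from 16 to 22 counts per library, and 71.5% of its mRNA lies within Gm28037. Rps10 stood at 3.22 ± 1.08 and 5.93 ± 0.668, and Rpl13a at 16.4 ± 4.30 and 21.2 ± 1.70. Rpl35 stood at 54.2 ± 3.29 and 61.7 ± 5.50, with 68.3% of its mRNA within neighbouring genes. Rps20, at 35.4 ± 2.15 and 40.8 ± 2.23, is the exception: it has no such overlap. The mRNA used for its length is annotated as 3706 bases long, against a median of 633 for the core genes. How far overlap lowered these counts was not tested. For 5 members more than 50% of the mRNA lies within other genes.

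**Figure D5:**
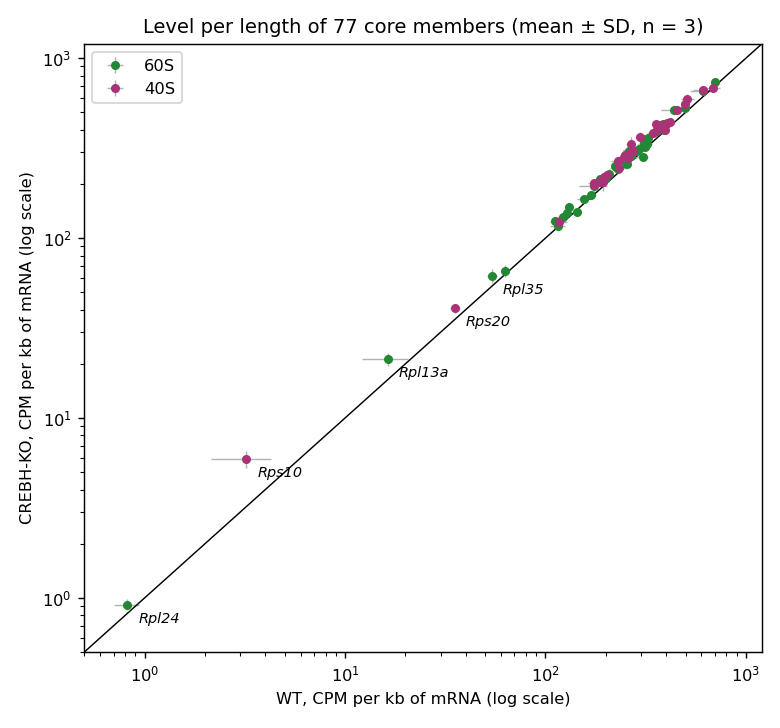
Level of the 77 core ribosomal protein genes in CREBH-KO (y axis) against WT (x axis), in CPM per kilobase of mRNA on log scales, with bars of 1 SD (n = 3); the line marks equal levels. Most points lie just above the line. Labelled at the low end are Rpl24, Rps10, Rpl13a, Rps20 and Rpl35, and the unlabelled Rpl23a (62.7 in WT) lies close to Rpl35 (54.2 in WT).

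The family is also known for its many processed pseudogenes. In 80 of the 83 members at least 1 stretch of 50 bases of the mRNA recurs in other annotated transcripts, and in 54 members more than 50% of such stretches do. Reads aligned to several places stand in a closing line of their own in the HTSeq files, so the counts of these members may rest on part of their reads. The annotation names 300 ribosomal protein pseudogenes, of which 104 were tested and 0 were called in edgeR's test. Their median log2 fold change was 0.18 and 86 of the 104 were above 0, against 53.1% of all genes tested. Their counts came to 1.26% to 1.42% of the members' counts in a library, though those named for Rps10 held more counts than Rps10 itself. Across the 80 members the log2 fold change had a Spearman correlation of -0.13 with mRNA length, 0.12 with GC content and -0.12 with the share of recurring stretches. These describe genes of the same 6 libraries and carry no p. The 20 members with no pseudogene bearing their symbol had a median of 0.17.

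Other parts of the translation machinery gave differing counts. Fau, which encodes eS30 fused to a ubiquitin-like protein, and the scaffold Rack1 are ribosome components whose names fall outside the pattern. Their log2 fold changes of 0.16 and 0.12 did not pass the test. Of 38 ribosome biogenesis genes, 2 rose (5.26%, against 3.91% of all genes called higher) and 0 fell, with a median of 0.18. CREBH-KO stood above WT without overlap in 11 of the 38 (28.9%), against 15% of all genes, and below WT without overlap in 0, against 15.7%. Nop58, a core protein of box C/D small nucleolar particles, stood at 24.7, 15.3 and 17.4 CPM in WT and at 30.1, 39.8 and 30.8 CPM in CREBH-KO, and rose by 0.81 (edgeR adjusted p = 0.0237). Ebna1bp2, a 60S assembly factor, rose by 0.40 (adjusted p = 0.0349). Of 19 genes of RNA polymerase I and its factors, 0 passed in either direction, with a median of 0.11. Of 28 initiation factors 1 rose (3.57%, against 3.91% of all genes called higher), the subunit joining factor Eif5b (0.29, edgeR adjusted p = 0.0465). The median of the 28 was 0.056. With 1 library left out, Nop58 and Ebna1bp2 kept their calls without WT 1 or CREBH-KO 1 and lost them without any other library (adjusted p of 0.0537 to 0.136), and Eif5b lost its call without any 1 library (0.0628 to 0.196). Over all 19 alternative runs, which include these, Eif5b lost its call in 11, and Nop58 and Ebna1bp2 lost theirs in 5 each.

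Genes known for TOP-type mRNAs that are not ribosomal proteins had a median close to 0. Of 20 elongation factors and other TOP-type genes, 1 rose and 1 fell (10% called, against 10.4% of all genes), and the median was 0.0066. The histone chaperone Nap1l1 rose by 0.32 (edgeR adjusted p = 0.0342) and the helicase Eif4a2 fell by 0.42 (adjusted p = 0.0115). The 8 tested host genes of small nucleolar RNAs had a median of -0.052, with 0 called. The 77 tested mitochondrial ribosomal protein genes had a median of -0.032, with 3 of them higher and 15 lower without overlap, where the shares over all genes are 15% and 15.7%. Of these 77, Mrps6 rose by 0.90 (edgeR adjusted p = 0.0220) and Mrpl45 fell by 0.42 (adjusted p = 0.0114), or 2.60% called. With 1 library left out, Mrpl45 stayed called, Eif4a2 lost its call without WT 2 (adjusted p = 0.0631), and Nap1l1 kept it only without CREBH-KO 1 (otherwise 0.0580 to 0.112). Mrps6 lost its call without WT 2, WT 3, CREBH-KO 2 or CREBH-KO 3 (0.0562 to 0.0880). Over all 19 alternative runs, which include these, Nap1l1 lost its call in 7, Mrps6 in 5, Eif4a2 in 2 and Mrpl45 in 1. Differences between these lists were not tested.

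Of 28 genes of mTORC1, LARP1 and S6 kinase control, 2 rose and 5 fell, with a median of -0.089. Called in either direction were 25% of them, against 10.4% of all genes. This list was chosen with earlier results of these data known. Myc, a transcription factor that drives ribosome synthesis, stood at 3.72, 5.57 and 5.92 CPM in WT and at 12.9, 15.1 and 8.91 CPM in CREBH-KO, and rose by 1.28 ± 0.23 (edgeR adjusted p = 0.0103). Rps6ka3, an S6 kinase of the RSK family, rose by 0.50 (adjusted p = 0.0341). The kinase gene Mtor stood at 55.1, 64.2 and 53.0 CPM in WT and at 41.0, 42.0 and 43.9 CPM in CREBH-KO, and fell by 0.44 ± 0.091 (edgeR adjusted p = 0.0176). Rptor, its partner in mTORC1, fell by 0.36 (adjusted p = 0.0284). Sesn3, whose protein restrains mTORC1, fell by 0.62 (adjusted p = 0.0259), and Eif4ebp1, a translation repressor that mTORC1 inactivates, fell by 0.29 (adjusted p = 0.0368). Rps6kb2, an S6 kinase gene, fell by 0.34 (adjusted p = 0.0380). With 1 library left out Myc stayed called, while Mtor and Sesn3 lost their calls (adjusted p of 0.0517 to 0.0970) when WT 2, CREBH-KO 2 or CREBH-KO 3 was the library left out. Rptor, Eif4ebp1, Rps6kb2 and Rps6ka3 kept theirs only without WT 1 (otherwise 0.0525 to 0.134). Over all 19 alternative runs, which include those with a library left out, Eif4ebp1 and Rps6kb2 each lost the call in 9. Rptor lost it in 8 and Rps6ka3 in 6, so some of these calls also depended on other settings. The list thus holds activators and inhibitors that moved in the same direction.

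Markers of other liver cells were set beside the family. The summed level of 8 stellate cell markers was 169 to 199 CPM in WT and 230 to 263 CPM in CREBH-KO, without overlap. Dcn, the largest part of the sum, stood at 78.9 to 90.0 CPM in WT and 113 to 131 CPM in CREBH-KO. The markers Dcn (0.56), Rgs5 (0.68) and Colec11 (0.56) rose, or 37.5% of the list, against 3.91% of all genes called higher. The other 5 did not pass the test: Col3a1 (0.64), Col1a1 (0.58), Hgf (0.48), Reln (0.081) and Lrat (-0.084). Dcn and Rgs5 stayed called with any 1 library left out, and Colec11 only without CREBH-KO 3 (otherwise adjusted p of 0.0672 to 0.114). Summed markers overlapped between the groups for Kupffer cells and macrophages (91.1 to 202 CPM and 105 to 127 CPM), sinusoidal endothelium (141 to 183 and 155 to 163 CPM) and B cells (2.77 to 8.32 and 6.06 to 8.55 CPM), with 0 genes called in each list. They also overlapped for cholangiocytes (35.8 to 78.9 and 41.7 to 69.3 CPM), where 1 of 5 markers, Sox9, rose by 0.96 (edgeR adjusted p = 0.0312). The other cholangiocyte markers did not pass the test. Of these, Epcam (-1.11), Krt19 (-0.35) and Spp1 (-0.092) were below 0, and Krt7 was at 0.035. The call of Sox9 was lost without WT 1, WT 2, CREBH-KO 1 or CREBH-KO 2 (0.0648 to 0.113). T and NK cells, neutrophils, red blood cells and proliferating cells overlapped too, with 0 genes called. The part of stellate or other cells in the members' shift was not tested.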

How the data were processed

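RNA was measured in liver of 3 WT and 3 CREBH-KO samples after a 14 h fast. The authors deposited 1 table of read counts per gene and library, and HTSeq is named in the titles, per the labels. Per the labels, libraries came from total RNA with an integrity number above 8 and were sequenced paired-end in the same lane. Not given in the sources used here are the aligner, genome build and HTSeq's version and strand option. All 55536 identifiers matched GENCODE M21 (GRCm38), which gave symbols, positions and lengths, and the build was inferred from this. With that option unknown, reads of antisense partners cannot be told apart. HTSeq's closing lines on unassigned reads were left out. The labels call the samples independent without naming mice, so p-values measure the spread between these samples.

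The fit used edgeR 4.0.16 in R 4.3.3: filterByExpr (minimum count 10, minimum total 15), TMM scaling, glmQLFit and glmQLFTest of CREBH-KO against WT with no covariate, two-sided, and Benjamini-Hochberg adjustment over 15589 genes. A gene was called at an adjusted p under 0.05. The SE was taken as the size of the log2 fold change over the root of the F statistic. Levels are CPM from TMM-scaled library sizes. The script was tested on simulated data. Alternatives were other scalings and filters, DESeq2 1.42.0, limma-voom (limma 3.58.1), edgeR's robust fit, offsets for exonic length or GC content (lowess span 0.3), each library left out, and CREBH-KO 1 alone.

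The members and gene lists were chosen with earlier results of these data known. The rule named Creb3l3, each called member, the 5 largest and 5 smallest fold changes, the 5 highest and 5 lowest levels per kilobase, all paralogs, members below the filter, Rps6, Rplp0, Rpsa, Rplp1 and Rplp2, and from each companion list up to 4 called genes per direction. Some items are not reported here. Rpl5, Rpl11, Fau, Rack1, Rps6kb2, Apoa1, Sox9 and the stellate markers were named after their values were seen. Promoter windows came from RefSeq (GRCm38.p6), whose starts can differ from those of GENCODE.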

Additional observations from a re-analysis of the deposited data

How the results depend on the processing

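No paired analysis was possible because the labels give no replicate numbers: the titles carry 1 running number over all samples, and the numbers 1 to 3 used here follow accession order and pair nothing. The members' median log2 fold change (0.14) stayed above 0 under every alternative. It moved by more than the spread between libraries with library size alone (0.21), with library size without mitochondrial and rRNA genes (0.20) and with CREBH-KO 1 alone (0.082), and lay between 0.11 and 0.18 when 1 library was left out. It was 0.14 for core members and 0.17 for members with no pseudogene bearing their symbol. The number of members called higher (3) was 5 in DESeq2, which added Rps10 and Rps3a1, and 0 with CREBH-KO 1 alone, where 1 library stands for its group and is assumed to vary like WT. It was 0 to 3 with 1 library left out, and the genes differed: Rpl13a, Rps10 and Rps28 without WT 1, Rpl7l1 and Rps27a without CREBH-KO 1. Without a filter on low counts it was 2 (Rps10 and Rps27a), and with the GC correction 2 (Rpl7l1 and Rps28). In none of these was a member called lower. Over all genes, 609 were called higher and 1007 lower. These numbers were 929 and 1527 without a filter and 76 and 152 with CREBH-KO 1 alone. They were 209 and 449 without WT 2, 401 and 697 without WT 3, 288 and 550 without CREBH-KO 2 and 263 and 515 without CREBH-KO 3. Without a filter more genes were called although the rule for a call was the same, and the cause was not tested.

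Log2 fold changes near 0 changed sign. Rps2 turned positive with library size alone (0.074), upper-quartile factors (0.034), TMM factors without the members (0.0013), library size without mitochondrial and rRNA genes (0.063), a mean of 50 counts or more (0.0060), limma-voom (0.0021) and the GC correction (0.017), and ran from -0.088 to 0.044 with 1 library left out. Rps27l turned positive under the first 5 of these (0.075, 0.035, 0.0021, 0.061 and 0.0068) and ran from -0.082 to 0.078 with 1 library left out. Rpl15 was positive with library size alone (0.025) and with library size without mitochondrial and rRNA genes (0.013), and Rpl22l1 with CREBH-KO 1 alone (0.013). Rpl5 was negative without a filter (-0.00023), with the GC correction (-0.014) and with CREBH-KO 1 alone (-0.028), and ran from -0.042 to 0.092 with 1 library left out. The cause was not tested. Creb3l3 was lower under every alternative (-3.41 to -3.10). Depth limits Rpl24 and Rps10 most, which had 16 to 114 counts per library.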
